A study of Mus musculus with 4 samples.

Results

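The pentose phosphate pathway enzymes of late 2C mouse embryos were examined after inhibition of DRP1 with Mdivi-1. The members are 9 genes, taken by symbol from the 26022 genes of the deposited count table: *G6pdx*, *G6pd2*, *H6pd*, *Pgls* and *Pgd* of the oxidative branch, and *Rpe*, *Rpia*, *Tkt* and *Taldo1* of the non-oxidative branch. The pathway was selected from these same libraries because *G6pdx* was higher in treated embryos, so the change of *G6pdx* is given here as a description without a test, while the other 8 genes were included for their place in the pathway. Of the 9 genes, 6 passed the filter on low counts and were tested, and 3 (*G6pd2*, *H6pd* and *Pgls*) did not.

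Embryos were of the outbred ICR strain, from females of 7 to 8 weeks mated with ICR males, after hormone-induced ovulation, with no genetic change in either group. Zygotes were cultured in KSOM medium without (control) or with 200 μM Mdivi-1, a small molecule used to inhibit the mitochondrial fission GTPase DRP1. The study collected 8 to 10 late 2C embryos per group after 16 h of culture and amplified their pooled RNA with Smart-Seq2, a method for full-length polyadenylated RNA that does not record the strand of a transcript. There were 2 control libraries and 2 Mdivi-1 libraries, each counted as a replicate because the labels number them, and nothing in the sources says whether they came from separate litters, so p-values measure only the spread between these libraries, which may be technical. Whether control medium held the DMSO in which Mdivi-1 was dissolved is not given for the embryos. As pools of embryos were lysed whole, fewer cells with a transcript and less of it per cell cannot be told apart.

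Total counts ranged from 17712075 to 20077326 per library, and 14793 to 16311 genes had a count. All 11 markers of the 2-cell embryo (such as *Zscan4d* and *Zfp352*) were counted in every library, with summed levels of 1889 and 2961 CPM (counts scaled to a fixed library total after TMM normalization) in control replicates 1 and 2 against 3145 and 3683 CPM in Mdivi-1 replicates 1 and 2. The sum was higher in both treated libraries, but *Dppa2* and *Dppa4* of this list were lower in both (log2 fold change -1.44 and -1.34, adjusted p = 0.149 and 0.179 by edgeR, 0.000259 and 0.00366 by DESeq2). In 7 of the 11 both treated libraries lay above both controls and in 2 below, against 26.1% and 23.9% of all genes. At an adjusted p of 0.05 DESeq2 called 4 of the 11 higher and 2 lower, against 3.30% and 2.80% of all genes, and edgeR called 0. The 10 markers of cumulus and granulosa cells summed to 7.78 and 16.8 CPM in controls and 22.0 and 22.4 CPM after treatment, with *Amh*, *Has2* and *Ptx3* at 0 in all 4 libraries. Of the 4 tested, *Star* and *Cyp19a1* were higher in both treated libraries, where 26.1% of all genes were. *Star* had 0 and 4 counts against 58 and 74, and *Cyp19a1* had 27 and 7 counts against 90 and 45. *Fshr* (0 and 67 counts against 0 and 11) and *Tnfaip6* (144 and 163 counts against 186 and 294) overlapped between the groups. Of the untested markers with counts, *Foxl2* had them in control replicate 2 only (11). *Ptgs2* had 0 and 3 counts against 76 and 0, and *Inhba* had 0 and 1 counts against 0 and 5. The 5 sperm markers found in the table summed to 2.59 and 1.51 CPM against 6.07 and 2.76 CPM, with *Tnp2* at 0 throughout. Of the 2 tested, *Prm2* had 42 and 0 counts against 113 and 36, so the groups overlapped. *Odf1* went the other way, with 15 and 19 counts against 0 and 0, where 23.9% of all genes were lower in both treated libraries. The part of such cells in the values given here was not tested.

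The pathway takes glucose 6-phosphate away from glycolysis. Its oxidative branch reduces NADP to NADPH, which serves biosynthesis and keeps glutathione reduced, and ends in ribulose 5-phosphate. Its non-oxidative branch interconverts sugar phosphates, which yields ribose 5-phosphate for nucleotides or returns carbon to glycolysis. Early mouse embryos use little glucose by glycolysis before compaction and take up pyruvate and lactate, and the pathway is known for supplying NADPH and ribose at these stages.

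*G6pdx*, the entry enzyme, stood at 18.95 ± 1.19 CPM in control and 89.0 ± 15.4 CPM in Mdivi-1-treated embryos (SD, n = 2 libraries each). *Pgd*, the second dehydrogenase, and *Taldo1*, the transaldolase of the non-oxidative branch, were lower in both treated libraries than in both controls, at 0.507 and 0.454 of the control mean, though neither passed an adjusted p of 0.05. *Rpia*, *Rpe* and *Tkt* overlapped between the groups. By edgeR's quasi-likelihood test across 14259 genes, 0% of genes were called at that threshold, so a member without a call is in the position of every gene tested. At an unadjusted p under 0.05 that test had 2268 genes, among them *Taldo1*. DESeq2 called 853 genes at the adjusted threshold, and 0 of *Pgd*, *Rpe*, *Rpia*, *Tkt* and *Taldo1*.

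Which gene a read was assigned to matters for these enzymes in 2 ways, namely near-identical copies and overlapping neighbours. *G6pd2* is an intronless copy of *G6pdx*. *G6pdx* (ENSMUSG00000031400) lies on the minus strand of chromosome X of GRCm38, from 74409483 to 74429194, and *G6pd2* (ENSMUSG00000089992) on the plus strand of chromosome 5, from 61808816 to 61811163, in 1 exon. Over 1539 aligned coding bases they differ at 82, which is 94.7% identity, and the longest run without a difference is 105 bases, shorter than the 150-base reads of the study. The window of 90 coding bases within 1 *G6pdx* exon that holds the most differences is printed for both genes, to show how a read tells them apart, with the 10 differing bases in capitals. It starts at coding base 1119 of both genes and is taken from the GENCODE M21 transcripts, at chrX:74410836-74410925 (minus strand, exon 10) for *G6pdx* and at chr5:61810002-61810091 (plus strand) for *G6pd2*.
G6pdx: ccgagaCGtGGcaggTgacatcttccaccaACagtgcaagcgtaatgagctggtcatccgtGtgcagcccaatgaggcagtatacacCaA
G6pd2: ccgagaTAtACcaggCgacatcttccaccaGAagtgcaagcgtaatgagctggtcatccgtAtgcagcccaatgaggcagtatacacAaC

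*G6pd2* had 0 and 2 counts in control replicates 1 and 2 against 0 and 0 in Mdivi-1 replicates 1 and 2. A count of 0 allows a level of up to 0.149 to 0.169 CPM of the unscaled totals in these libraries, a limit that, like the intervals given with other counts, covers counting error only, since PCR copies are not independent molecules. The *G6pdx* counts are thus nearly all of what was assigned to either copy, and a row summing both had a log2 fold change of 2.23, as *G6pdx* alone did.

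The neighbours were read from GENCODE M21. *G6pdx* lies within the span of *Ikbkg*, which encodes the NEMO subunit of the IκB kinase complex and is transcribed from the opposite strand, and 418 of 3080 exonic bases of *G6pdx* (13.6%) are also exonic in *Ikbkg*. The groups overlapped for *Ikbkg*, which had 3.19 and 4.99 CPM in control replicates 1 and 2 against 2.85 and 3.34 CPM in Mdivi-1 replicates 1 and 2 (log2 fold change -0.40, standard error (SE) 0.97, adjusted p = 0.902 by edgeR). The last exon of *Rpe* shares 558 of its gene's 3113 exonic bases with *Kansl1l* on the opposite strand. *Pgls* shares 776 of 3770 exonic bases with *Fam129c* on the same strand, but 0 of the 771 coding bases of its main transcript. *Pgd*, *Rpia* and *Taldo1* share none with an annotated neighbour, and *Tkt* shares 1 base with a microRNA gene. Reads that lie on 2 genes are counted for neither by the counting mode used, and the annotation release of the authors was another one than that read here.

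**Figure D1:**
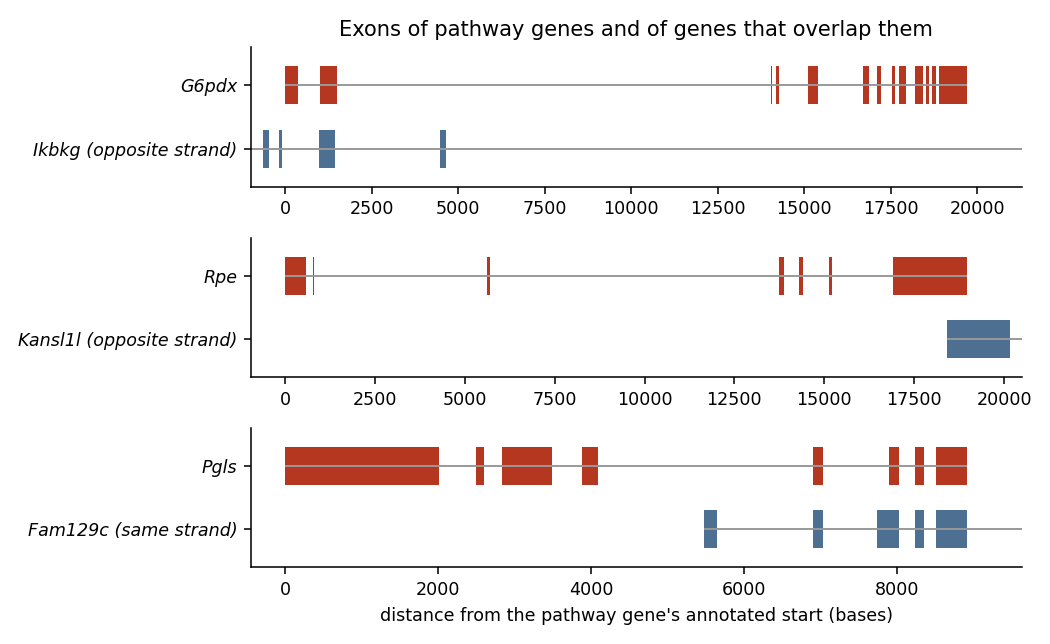
Exons (boxes) of *G6pdx*, *Rpe* and *Pgls* in red and of the gene overlapping each in blue, by distance in bases from the annotated start of the pathway gene (x axis), merged over all transcripts of a gene. 1 exon of *Ikbkg* meets the second exon of *G6pdx*, *Kansl1l* meets the last exon of *Rpe*, and *Fam129c* meets the last exons of *Pgls*.

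Of the oxidative branch, *G6pdx* encodes the enzyme that commits glucose 6-phosphate to the pathway and produces its first NADPH. It had 435 and 276 counts in control replicates 1 and 2 against 1861 and 1500 counts in Mdivi-1 replicates 1 and 2, or 19.8 and 18.1 CPM against 99.9 and 78.2 CPM. The groups are far apart, and the difference of the means is 4.70-fold, with a log2 fold change of 2.23 (SE 0.33). This is the value that chose the pathway and supports nothing by itself. Among all genes tested, 94.4% had a lower log2 fold change. With each library left out in turn it was 2.04 to 2.38.

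*G6pdx* is X-linked, and the embryos of a pool may differ in sex. The 543 X-linked genes tested had a median log2 fold change of 0.11, against 0.03 for all genes. Y-linked genes summed to 67.6 and 19.4 CPM in control replicates 1 and 2 and to 61.4 and 44.8 CPM in Mdivi-1 replicates 1 and 2, so the groups overlapped. *Xist*, the RNA that silences an X chromosome, was low throughout, at 4.23 and 6.50 CPM against 3.49 and 2.92 CPM. Oocyte markers, none of them at 0 in any library, had a higher sum in both treated libraries than in both controls. The 8 markers together gave 1472 and 3025 CPM without Mdivi-1, compared with 3457 and 4474 CPM after treatment. In each group the library with more *G6pdx* had the lower sum, an order of 2 libraries that was not tested. *Oosp1* alone stood at 956 and 2368 CPM without Mdivi-1, compared with 2401 and 3198 CPM after treatment (edgeR adjusted p = 0.490). *Bmp15* had 184 and 273 CPM against 662 and 975 CPM (adjusted p = 0.146 by edgeR and 2.54e-05 by DESeq2). At an adjusted p of 0.05 DESeq2 called 2 of the 8 markers higher (*Bmp15* and *Zp2*) and 0 lower. It called 3.30% of all genes higher and 2.80% lower, and edgeR called 0 of the 8. Of the 8 markers, 4 (*Zp2*, *Gdf9*, *Bmp15* and *Oosp1*) were higher and *Zp3* lower in both treated libraries than in both controls. Of all genes, 26.1% were higher and 23.9% lower in this way. The part of stored maternal RNA in the *G6pdx* value was not tested.

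*Pgd* encodes 6-phosphogluconate dehydrogenase, which produces the second NADPH and ribulose 5-phosphate. Its locus is on chromosome 4 of GRCm38, at 149149991 to 149166771 (minus strand). It had 23.8 and 35.2 CPM in control replicates 1 and 2 against 11.3 and 18.6 CPM in Mdivi-1 replicates 1 and 2. Both treated libraries thus lay below both controls, a pattern that 23.9% of all genes tested showed. The log2 fold change was -0.98 (SE 0.46, adjusted p = 0.346 by edgeR and 0.331 by DESeq2). It ranged from -0.67 without Mdivi-1 replicate 1 to -1.40 without Mdivi-1 replicate 2, and the difference of *Pgd* is not beyond the spread of the libraries by these tests.

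*Pgls* encodes 6-phosphogluconolactonase, the enzyme between the dehydrogenases, and was close to undetected. It had 4 and 1 counts in control replicates 1 and 2 against 8 and 3 counts in Mdivi-1 replicates 1 and 2. The highest of these, 8 counts, is 0.452 CPM of the unscaled total with an exact 95% binomial interval of 0.195 to 0.890, and no difference was detectable at this depth. *H6pd*, which encodes the hexose-6-phosphate dehydrogenase of the endoplasmic reticulum, had 0 counts in both controls and in Mdivi-1 replicate 1, and 10 counts in Mdivi-1 replicate 2. The *H6pd* signal rests on that single library, where it is 0.541 CPM of the unscaled total with an exact 95% interval of 0.259 to 0.994. The 3 members with almost no counts all belong to the oxidative branch, which in these libraries was read almost wholly from *G6pdx* and *Pgd*. On GRCm38 *Pgls* is at chr8:71592176-71601092 (plus strand) and *H6pd* at chr4:149979475-150009023 (minus strand).

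Of the non-oxidative branch, *Taldo1* encodes transaldolase, which moves a dihydroxyacetone unit between sugar phosphates. Its locus is on chromosome 7 of GRCm38, at 141392199 to 141402968 (plus strand). It had 1610 and 1214 counts in control replicates 1 and 2 against 525 and 792 counts in Mdivi-1 replicates 1 and 2, or 73.3 and 79.7 CPM against 28.2 and 41.3 CPM. Both treated libraries lay well below both controls. The log2 fold change was -1.14 (SE 0.34, adjusted p = 0.201 by edgeR and 0.0660 by DESeq2), so the call was missed at the adjusted threshold by either tool. Of all genes tested, 7.64% were lower at an unadjusted p under 0.05. Over the alternatives the log2 fold change of *Taldo1* was -0.89 to -1.46 with adjusted p of 0.0575 to 0.709. Of the 5 tested members besides *G6pdx*, *Taldo1* was the 1 with an unadjusted p under 0.05.

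*Rpia* encodes the isomerase that makes ribose 5-phosphate and is on the list of 2C genes that the study used. It had 25.5 and 29.3 CPM in control replicates 1 and 2 against 25.4 and 26.8 CPM in Mdivi-1 replicates 1 and 2, so the groups overlapped. The log2 fold change was -0.07 (SE 0.37, adjusted p = 0.963 by edgeR), the smallest standard error of the members after those of *G6pdx* and *Taldo1*.

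*Rpe* encodes the epimerase that makes xylulose 5-phosphate. It had 10.4 and 6.43 CPM in control replicates 1 and 2 against 8.91 and 12.5 CPM in Mdivi-1 replicates 1 and 2 (log2 fold change 0.35, SE 0.60, adjusted p = 0.849 by edgeR). *Tkt* encodes transketolase, which works beside transaldolase and depends on thiamine. It had 6.55 and 4.27 CPM without Mdivi-1 against 7.73 and 3.34 CPM with it (log2 fold change 0.03, SE 0.82, adjusted p = 0.994 by edgeR). The libraries of a group differed more than the groups for *Rpe* and for *Tkt*, and a 2-fold change of *Tkt* would lie within 2 standard errors. On GRCm38 *Rpia* is at chr6:70765720-70792232 (minus strand), *Rpe* at chr1:66700831-66719805 (plus strand) and *Tkt* at chr14:30548359-30574720 (plus strand).

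**Figure D2:**
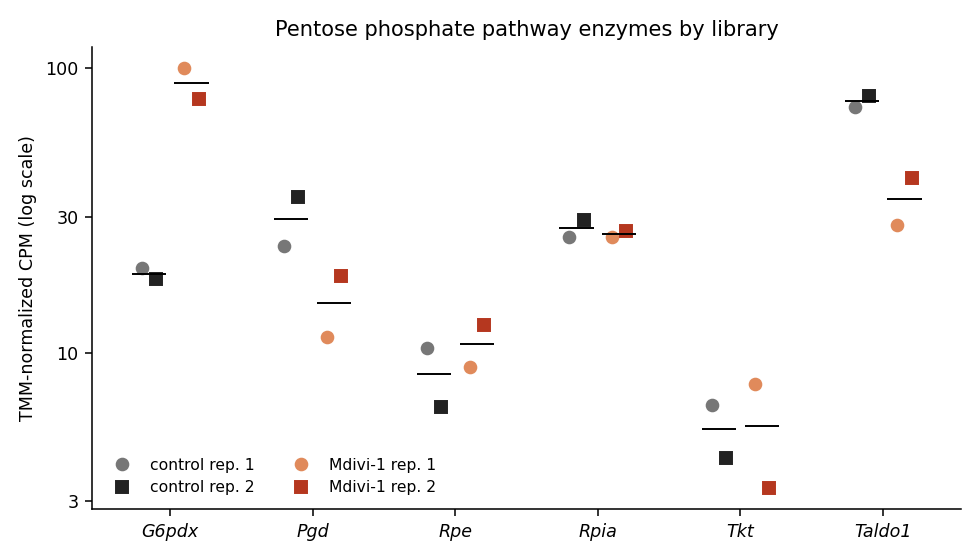
Level in TMM-scaled CPM on a log axis (y) of the 6 tested pentose phosphate pathway enzymes (x axis) in each library, with controls in grey and black, Mdivi-1-treated libraries in orange and red, and bars at the group means. *G6pdx* lies at 18.1 to 19.8 CPM in controls and 78.2 to 99.9 CPM after treatment, *Pgd* and *Taldo1* are lower in both treated libraries, and the other 3 overlap.

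Of the 6 tested enzymes, and with the 3 low-count genes left out, 3 had a positive log2 fold change, against 51.3% of all genes. Both treated libraries lay above both controls in 1 (*G6pdx*), where 26.1% of all genes did so, and below in 2 (*Pgd* and *Taldo1*), where 23.9% did. As *G6pdx* chose the pathway, nothing is read from the count above, and *G6pdx* is also 1 of the 3 with a positive value.

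Ratios of counts within a library do not depend on how libraries are scaled. The *G6pdx* count was 0.270 and 0.227 of that of *Taldo1* in control replicates 1 and 2 against 3.54 and 1.89 times that of *Taldo1* in Mdivi-1 replicates 1 and 2. It was 0.833 and 0.514 of that of *Pgd* in the controls against 8.82 and 4.21 times that of *Pgd* in the treated libraries. *G6pdx* was thus below *Taldo1* in both controls and above it in both treated libraries, as it also was per kb of exonic length. As *G6pdx* chose the pathway, the ratios with *G6pdx* are descriptions. Between single enzymes, ratios without *G6pdx* were computed only among *Pgd*, *Taldo1* and *Rpia*, so *Rpe* and *Tkt* are not covered. *Pgd* to *Taldo1* was 0.324 and 0.442 in the controls against 0.402 and 0.450 in the treated libraries, so the groups overlapped in this ratio. *Rpia* to *Taldo1* was 0.348 and 0.368 against 0.903 and 0.649, and *Rpia* to *Pgd* was 1.07 and 0.832 against 2.25 and 1.44. The groups did not overlap in either *Rpia* ratio. As *Rpia* itself overlapped between the groups, these ratios restate the lower levels of *Taldo1* and *Pgd*. No share over pairs of all genes was computed.

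**Figure D3:**
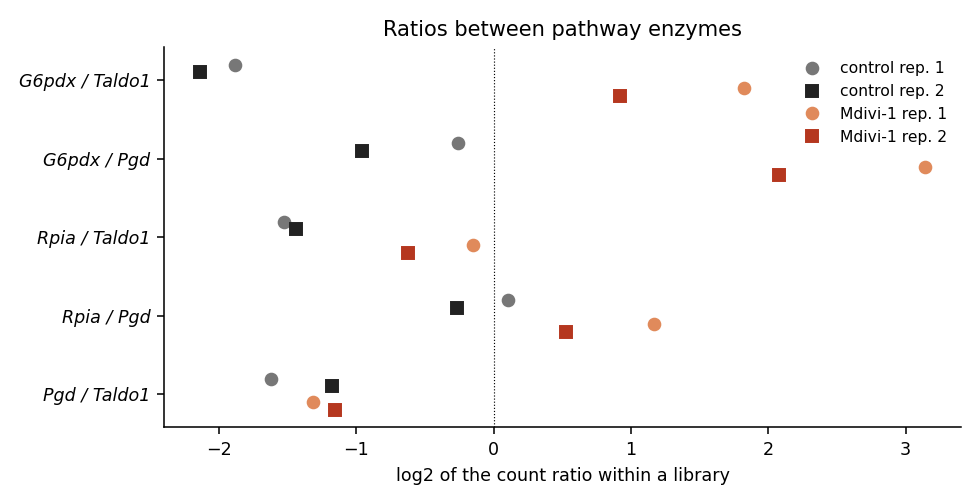
Log2 of the ratio of counts of pairs of pathway enzymes (y axis) within each library (x axis), with controls in grey and black and Mdivi-1-treated libraries in orange and red; the dotted line marks equal counts. *G6pdx* crosses from below to above *Taldo1*, while *Pgd* to *Taldo1* stays between -1.63 and -1.15 in all 4 libraries.

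Summed over the branches, the oxidative enzymes had 43.7 and 53.5 CPM in control replicates 1 and 2 against 112 and 97.4 CPM in Mdivi-1 replicates 1 and 2. The non-oxidative enzymes had 116 and 119.7 CPM without Mdivi-1 against 70.3 and 83.9 CPM in the treated libraries. The ratio of the sums was 0.378 and 0.447 in controls and 1.589 and 1.161 after treatment, a difference of 1.72 on the log2 scale. Without *G6pdx* the ratio was 0.207 and 0.296 against 0.167 and 0.229, so the groups overlapped and the higher oxidative share was not seen without *G6pdx*. The sum over all 9 genes differed little, at 159 and 173 CPM in controls and 182 and 181 CPM in treated embryos.

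Levels of different genes can be set side by side only per length. Per kb of exonic length, with all transcripts of a gene merged, *Taldo1* was the highest in controls at 35.2 ± 2.08 CPM per kb (SD, n = 2), followed by *G6pdx* at 6.15 ± 0.387, *Rpia* at 5.11 ± 0.507, *Pgd* at 4.58 ± 1.26, *Rpe* at 2.70 ± 0.896 and *Tkt* at 0.735 ± 0.220 CPM per kb. The libraries of *Rpia* and *Pgd* overlapped, so those 2 neighbours in the order were not separated. After treatment *G6pdx* was the highest at 28.9 ± 4.98 CPM per kb, followed by *Taldo1* at 16 ± 4.27, *Rpia* at 4.87 ± 0.178, *Rpe* at 3.44 ± 0.818, *Pgd* at 2.32 ± 0.793 and *Tkt* at 0.752 ± 0.422 CPM per kb. There the libraries of *Rpe* and *Pgd* overlapped. *G6pdx* made up 12.2% and 10.5% of the summed level per kb in control replicates 1 and 2 against 58.0% and 44.6% in Mdivi-1 replicates 1 and 2, and *Taldo1* 63.8% and 65.2% against 23.2% and 33.4%.

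**Figure D4:**
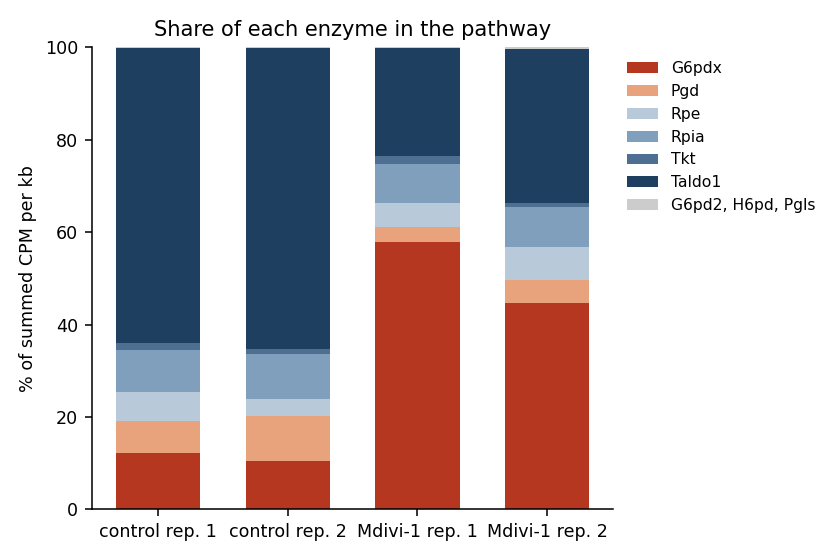
Share of each pathway enzyme in the summed CPM per kb of exonic length of the 9 genes (y axis, %) in each library (x axis), as stacked bars. *Taldo1* makes up 63.8% and 65.2% in the controls, and *G6pdx* 58.0% and 44.6% after Mdivi-1, while *G6pd2*, *H6pd* and *Pgls* are too small to see.

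Among 16 tested genes of the KEAP1-NRF2 system, which controls the response to oxidants, the log2 fold change was above 0 in 5 and below it in 11 (median -0.28), and edgeR called 0. *Slc7a11*, the cystine transporter subunit, had 44.2 and 20.5 CPM in control replicates 1 and 2 against 96.1 and 69.2 CPM in Mdivi-1 replicates 1 and 2 (log2 fold change 1.35, edgeR adjusted p = 0.217), and *Bach2*, a repressor of the BACH family, had 3.50 and 4.46 against 16.5 and 9.90 CPM (log2 fold change 1.73, edgeR adjusted p = 0.256). *Gclc*, the catalytic subunit of glutathione synthesis, had 82.9 and 62.2 CPM against 27.3 and 39.5 CPM (log2 fold change -1.12, edgeR adjusted p = 0.217), and *Bach1*, a repressor that competes with NRF2, had 104 and 86.0 CPM against 42.5 and 49.8 CPM (log2 fold change -1.04, edgeR adjusted p = 0.201). As edgeR called 0% of all genes at the adjusted threshold, the lack of a call says nothing about these 4. By DESeq2 their adjusted p was 0.0562 (*Slc7a11*), 0.184 (*Bach2*), 0.083 (*Gclc*) and 0.0646 (*Bach1*). At an unadjusted p under 0.05 by edgeR, 2 of the 16 were higher and 2 lower, against 8.27% and 7.64% of all genes.

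Around the pathway, 120 genes in 6 lists (the KEAP1-NRF2 list included) were compared, of which 105 were tested. EdgeR called 0 of them at an adjusted p of 0.05 and 17 had an unadjusted p under 0.05, where 15.9% of all genes did. Of all genes, 8.27% were higher and 7.64% lower at that unadjusted threshold. DESeq2 called *Tktl2* higher, where it called 3.30% of all genes higher, and *Pfkfb3* and *Aprt* lower, where it called 2.80% lower, so 3 in all against a background of 6.10%.

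Among the enzymes beside the pathway, which include transketolase-like proteins and the PRPP synthetases that activate ribose 5-phosphate, 11 of 14 were tested, with 4 positive and 7 negative log2 fold changes (median -0.20). *Tktl2*, a transketolase-like gene, had 2 and 0 counts in control replicates 1 and 2 against 113 and 47 counts in Mdivi-1 replicates 1 and 2 (edgeR adjusted p = 0.201, DESeq2 adjusted p = 0.0167). With 2 counts in all in the controls, no fold is given for it. *Prps1*, a PRPP synthetase and also on the list of 2C genes the study used, had 2699 and 3878 CPM in controls and 1253 and 2252 CPM after treatment (log2 fold change -0.91, edgeR adjusted p = 0.334). Its associated proteins *Prpsap2* and *Prpsap1* were lower in both treated libraries, at log2 fold changes of -0.82 and -0.55 (edgeR adjusted p = 0.232 and 0.429). Of the 11 tested, 4 were lower in this way and 1 higher, where 23.9% and 26.1% of all genes were.

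Among other enzymes that make NADPH, 12 of 15 listed genes were tested, with 6 positive and 6 negative log2 fold changes (median 0.12). *Mthfd2*, a mitochondrial enzyme of folate metabolism, had 54.5 and 49.3 CPM in controls and 89.4 and 123.7 CPM after treatment (log2 fold change 1.04, SE 0.32, adjusted p = 0.208 by edgeR and 0.0764 by DESeq2). *Me1*, the cytosolic malic enzyme, had 105 and 61.5 CPM against 126 and 133.6 CPM (log2 fold change 0.64, edgeR adjusted p = 0.413). *Glud1* and *Mthfd1* were lower in both treated libraries, at log2 fold changes of -0.57 and -1.13 (edgeR adjusted p = 0.385 and 0.441). In this list 4 of the 12 were lower in both treated libraries and 2 higher, where 23.9% and 26.1% of all genes were. *Idh1*, the cytosolic isocitrate dehydrogenase, overlapped between the groups at 15.4 and 24.9 CPM against 16.1 and 21.8 CPM.

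Glucose uptake and the glycolytic enzymes that share substrates with the pathway were next, and the 28 genes of this list summed to 282 to 340.3 CPM. Of 21 tested, 11 lay above and 10 below a log2 fold change of 0 (median 0.04). *Pfkfb3*, which makes the activator of phosphofructokinase, had 21.4 and 18.3 CPM in control replicates 1 and 2 against 4.56 and 3.44 CPM in Mdivi-1 replicates 1 and 2 (log2 fold change -2.31, SE 0.54, adjusted p = 0.159 by edgeR and 0.0144 by DESeq2). *Slc2a1*, the glucose transporter GLUT1, had 11 and 2 counts in controls and 111 and 65 counts after treatment (log2 fold change 3.84, SE 1.41, adjusted p = 0.253 by edgeR and 0.0816 by DESeq2). *Pfkp* and *Pfkfb2* had log2 fold changes of 0.92 and 2.26 with edgeR adjusted p of 0.599 and 0.595. *Tigar*, a phosphatase that diverts sugar phosphates to the pentose phosphate pathway, had 170 and 177 CPM against 134 and 147 CPM (log2 fold change -0.30, named after its values were seen).

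Nucleotide synthesis from PRPP, the product of ribose 5-phosphate, gave 5 positive and 17 negative log2 fold changes among 22 tested genes, with a median of -0.50 against 0.03 over all genes. In 14 of the 22 both treated libraries lay below both controls, where 23.9% of all genes did. *Aprt*, which salvages adenine with PRPP, had 114 and 94.3 CPM in control replicates 1 and 2 against 34.1 and 39.6 CPM in Mdivi-1 replicates 1 and 2 (log2 fold change -1.50, SE 0.31, adjusted p = 0.149 by edgeR and 0.00285 by DESeq2). *Umps* of pyrimidine synthesis and *Impdh2* of GMP synthesis had log2 fold changes of -0.94 each (edgeR adjusted p = 0.221 and 0.244). *Adss*, which commits IMP to AMP, was 1 of 4 genes of the list, with *Dhodh*, *Naprt* and *Rrm2b*, that were higher in both treated libraries (26.1% of all genes), and had 85.3 and 86.7 CPM in controls and 168 and 129.8 CPM after treatment (log2 fold change 0.79, edgeR adjusted p = 0.259).

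Of the enzymes that use NADPH, all 23 were tested, with 9 positive and 14 negative log2 fold changes (median -0.16). *Cbr1*, a carbonyl reductase, had 14.8 and 9.84 CPM against 3.33 and 3.49 CPM (log2 fold change -1.85, edgeR adjusted p = 0.242), and *Akr1a1*, an aldehyde reductase, 182 and 194 CPM against 137.7 and 94.8 CPM (log2 fold change -0.69, edgeR adjusted p = 0.331). *Por*, the reductase that feeds P450 enzymes, and *Akr1b3*, aldose reductase, had log2 fold changes of -1.21 and 0.66. *Gsr*, which spends NADPH to reduce glutathione, overlapped between the groups at 18.5 and 14.8 CPM against 17.5 and 11.8 CPM.

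**Figure D5:**
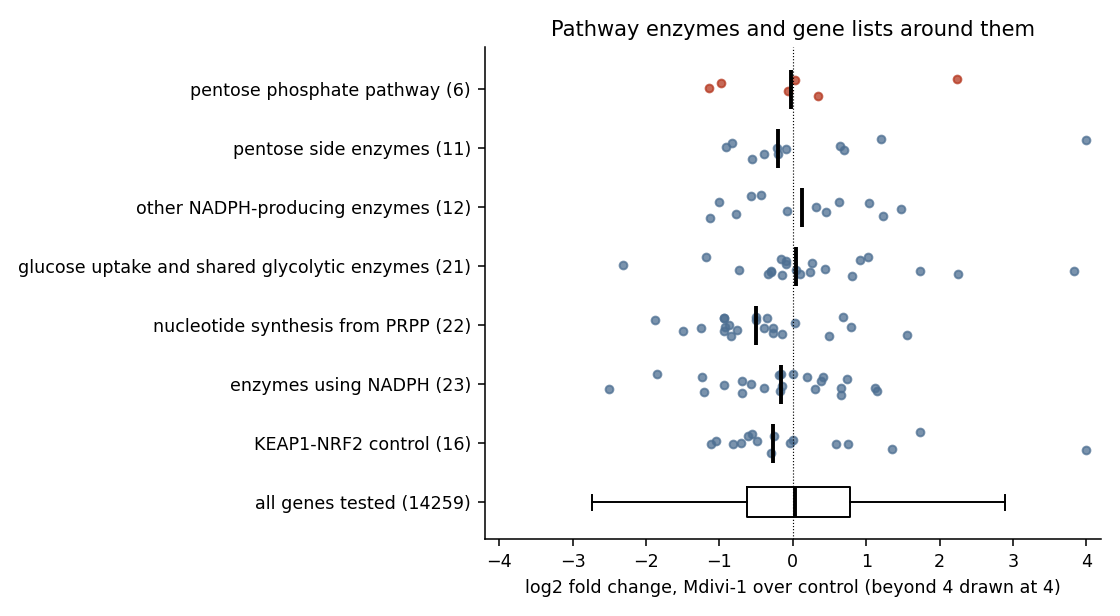
Log2 fold change (x axis, Mdivi-1 over control) of the 6 tested pentose phosphate pathway enzymes (red) and of the tested genes of 6 lists around the pathway (blue, number of genes in brackets), with bars at the medians and a box with quartiles and whiskers for all 14259 genes tested. *G6pdx* lies at 2.23, apart from the other 5 enzymes, and the median of nucleotide synthesis from PRPP lies at -0.50.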

How the data were processed

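RNA-seq of 4 libraries of pooled late 2C embryos was analysed. Per the labels and the study's methods, the authors trimmed reads with cutadapt 1.16, mapped them with STAR (version not given in the sources used here) to mm10 and deposited raw counts per gene from uniquely mapped reads in exons. The deposited signal columns hold the same counts after size-factor scaling and were only checked against them. The authors' DESeq2 fold changes and p-values in the table were not used. Counts were filtered with filterByExpr (minimum count 10), scaled by TMM and tested two-sided with edgeR 4.0.16 (R 4.3.3, glmQLFTest), with p-values adjusted by Benjamini-Hochberg over 14259 genes. Standard errors were derived from its F statistic. DESeq2 1.42.0 and limma 3.58.1 (voom) were alternatives. The biological coefficient of variation was 0.66. Libraries of a group differed beyond counting error (chi-square over degrees of freedom 116 in control and 52.9 in Mdivi-1). Levels are CPM on TMM-scaled totals, with 0 counts limited at 3 counts per library.

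The members and lists were chosen with earlier results of these data known. Named are all members, the smallest-p genes of each list (at most 4), genes overlapping a member, and the 5 genes most like *G6pdx*, gene models named Gm or Rik left out. Other list genes (*Idh1*, *Tigar*, *Gsr*, *Dhodh*, *Naprt*, *Rrm2b*, and some markers) were picked once their values were known. Of 120 genes listed around the pathway, 119 were found by symbol in the table and 1 was not analysed here. Coordinates are of GENCODE M21 (GRCm38), because those in the deposited table are of another build. The tests were also run on counts simulated with dispersions fitted to these same libraries. Such a run cannot check the spread between the libraries, and its outcome is not reported here. A promoter motif result is not reported here.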

Additional observations from a re-analysis of the deposited data

How the results depend on the processing

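At an adjusted p of 0.05 the quasi-likelihood test called 0 genes (2268 at an unadjusted p under 0.05), and 819 without a low-count filter, while DESeq2 called 853, limma-voom 202 and the likelihood ratio test 870. With 1 library left out, in fits that assume the lone library to vary like the other group, 0 to 803 genes were called (803 without control replicate 1, 380 without control replicate 2, 4 without Mdivi-1 replicate 2) and 1208 to 3111 had an unadjusted p under 0.05. Of the 5 tested members besides *G6pdx*, 0 were called under any of the 12 alternatives. The log2 fold change of *G6pdx* was 2.04 (without Mdivi-1 replicate 1) to 2.38 with a library left out. Without the filter 5 of the 9 members had a positive log2 fold change, among them low-count genes. *Rpia* turned to 0.060 when scaled by library totals, which raised the median of all genes from 0.03 to 0.14, and was -0.18 to 0.010 with a library left out. *Tkt* turned to -0.11 by limma-voom and was -0.70 to 0.49 with a library left out. The log2 difference of the branch ratio was 2.35 per kb. Of the genes in the 6 lists DESeq2 called 3, and edgeR 0 to 5 with a library left out (5 without control replicate 1, 1 without control replicate 2).

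Replicate numbers were not shown to pair the libraries: the deviations of same-numbered libraries correlated at 0.00809 across genes. With the replicate number as a block, 0 genes were called, 2041 had an unadjusted p under 0.05, and *Tkt* turned to -0.055. With 2 libraries a group, a change of *Rpe*, *Tkt* or the low-count members is hard to detect.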

Other observations

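Without gene models named Gm or Rik, the genes with profiles closest to *G6pdx* over 4 libraries were *Ninj2*, *Glrx*, *Lrrc37a*, *Mrc1* and *Frk*. Compared were 7091 others with a mean of at least 10 CPM, a number that includes such gene models. Likeness was the Euclidean distance between log2 CPM profiles centred on their own means, from 0.124 for *Ninj2* to 0.304 for *Frk*, over 4 libraries only, and it uses the same contrast that chose *G6pdx*. *Ninj2*, a ninjurin family membrane protein, had 9.97 and 9.91 CPM in control replicates 1 and 2 and 52.3 and 38.2 CPM in Mdivi-1 replicates 1 and 2. *Glrx*, a glutaredoxin that reduces proteins at the cost of glutathione, had 9.56 and 8.66 CPM against 53.6 and 38.4 CPM. *Mrc1*, a mannose receptor, had 4.37 and 4.13 CPM against 20.4 and 14.0 CPM, and *Frk*, a Src-related kinase, 7.37 and 6.82 CPM against 29.3 and 25.1 CPM.

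Of markers of later stages, *Cdx2* was at 0 in all 4 libraries, and the 7 markers of morula and blastocyst summed to 54.4 and 67.4 CPM in controls and 55.6 and 56.8 CPM after treatment. Within that list *Gata3* was higher in both treated libraries, at 10.5 and 9.45 CPM against 26.4 and 22.5 CPM (log2 fold change 1.29, adjusted p = 0.232 by edgeR), and *Tfap2c* lower, at 41.2 and 49.9 CPM against 26.3 and 29.1 CPM (log2 fold change -0.72, adjusted p = 0.360 by edgeR). Of all genes tested, 26.1% were higher and 23.9% lower in both treated libraries. The groups overlapped for *Krt8*, *Krt18* and *Gata6*, the rest of the 5 markers tested.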
